A study of Homo sapiens with 6 samples.

Results

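The genes described here encode proteins of the mitochondrial ribosome, and their messenger RNA was measured in HCCLM3 cells, a human hepatocellular carcinoma line with high metastatic capacity. Members were the protein-coding genes whose symbol begins with MRPL or MRPS followed by a number, MRPL for the large and MRPS for the small subunit. The rule gave 78 of 58302 listed genes (19847 of them protein coding), with 49 MRPL and 29 MRPS genes spread over 21 chromosomes. All 6 libraries came from HCCLM3 cells given an antisense oligonucleotide (ASO), made to bind an RNA of matching sequence: 3 libraries with Control ASO and 3 with SCARNA13 ASO. SCARNA13 is a small Cajal body-specific RNA, a class that guides chemical modification of spliceosomal RNAs. The comparison addresses which genes lie downstream of SCARNA13. Whether replicates came from separate cultures is not in the labels, and a p-value here may reflect technical spread alone. The groups share the cell line and ASO transfection and differ, by their labels, in the ASO alone.

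Mitochondria keep a ribosome of their own, descended from that of bacteria, which translates the few messenger RNAs encoded in mitochondrial DNA into membrane subunits of the respiratory chain and ATP synthase. Its ribosomal RNAs are transcribed inside the organelle, whereas its proteins are encoded in the nucleus, made in the cytosol and imported. The small subunit binds the messenger RNA and reads codons. The large subunit joins amino acids and passes the chain through an exit tunnel to the inner membrane. Symbols do not match structure in every case: MRPS18A and MRPS30 encode proteins that sit in the large subunit, and MRPS36 (now also called KGD4) encodes a component of the 2-oxoglutarate dehydrogenase complex. MRPL58 (ICT1), counted in the large subunit throughout, encodes a hydrolase that rescues stalled ribosomes. Of the 78 members, 48 have a homolog in bacterial ribosomes and 30 are specific to mitochondria.

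Between 20457474 and 25173559 reads were assigned to genes per library. Values are FPKM, reads scaled by gene length and by a factor per library, a level per length. For nearly all members the listed length covers all annotated exons and not the expressed transcript alone, so levels compare only roughly between genes. SCARNA13 itself measured 0.652 FPKM ± 0.0852 in controls and 0.373 FPKM ± 0.10 with SCARNA13 ASO (SD, n = 3; exact two-sided permutation p = 0.1, the smallest that 3 against 3 libraries allow). These levels rested on 6, 5 and 2 reads against 2, 3 and 2 reads. With 2 reads each, the libraries of replicate 3 differ only by the factor per library. So few reads cannot establish a lower level of SCARNA13. Of 7 hepatocyte and hepatoma markers, 1 reached a mean of 1 FPKM. ALB, APOB and GPC3 were listed at 0 in every library, whereas APOA1, TTR, SERPINA1 and AFP were above 0 in at least 1 library. The summed level of the 7 was 1.62 to 3.22 FPKM in controls and 1.53 to 2.82 FPKM with SCARNA13 ASO. Of 4 epithelial markers, 3 reached 1 FPKM, against 0 of 11 markers of fibroblasts, endothelium and immune cells. Replicate 3 stood apart from replicates 1 and 2 in both groups, and the comparisons below are therefore given with and without it. Values of 3 libraries are listed in the order of the replicate numbers.

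Most members were well above the typical protein-coding gene. Over the 4 libraries of replicates 1 and 2, the median member stood at 20.7 FPKM, against 5.70 FPKM for the 8888 protein-coding genes tested, and 58 of 78 members lay above that value. MRPL genes had a median of 25.2 FPKM and MRPS genes 9.53 FPKM. In those libraries 3 members exceeded 100 FPKM, 47 exceeded 10 FPKM and 17 were under 5 FPKM, and the highest tested member stood 140-fold over the lowest. The spread among the 4 libraries was small beside these differences, with a median coefficient of variation of 5.52% and a highest of 24.2%. Across the 78 genes, log2 level was lower at greater listed gene length (Pearson r = -0.48, Spearman rho = -0.52) and higher at higher GC content (r = 0.58, rho = 0.62). These are descriptions across genes that share libraries and base composition, and the listed length itself enters each FPKM value.

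**Figure D1:**
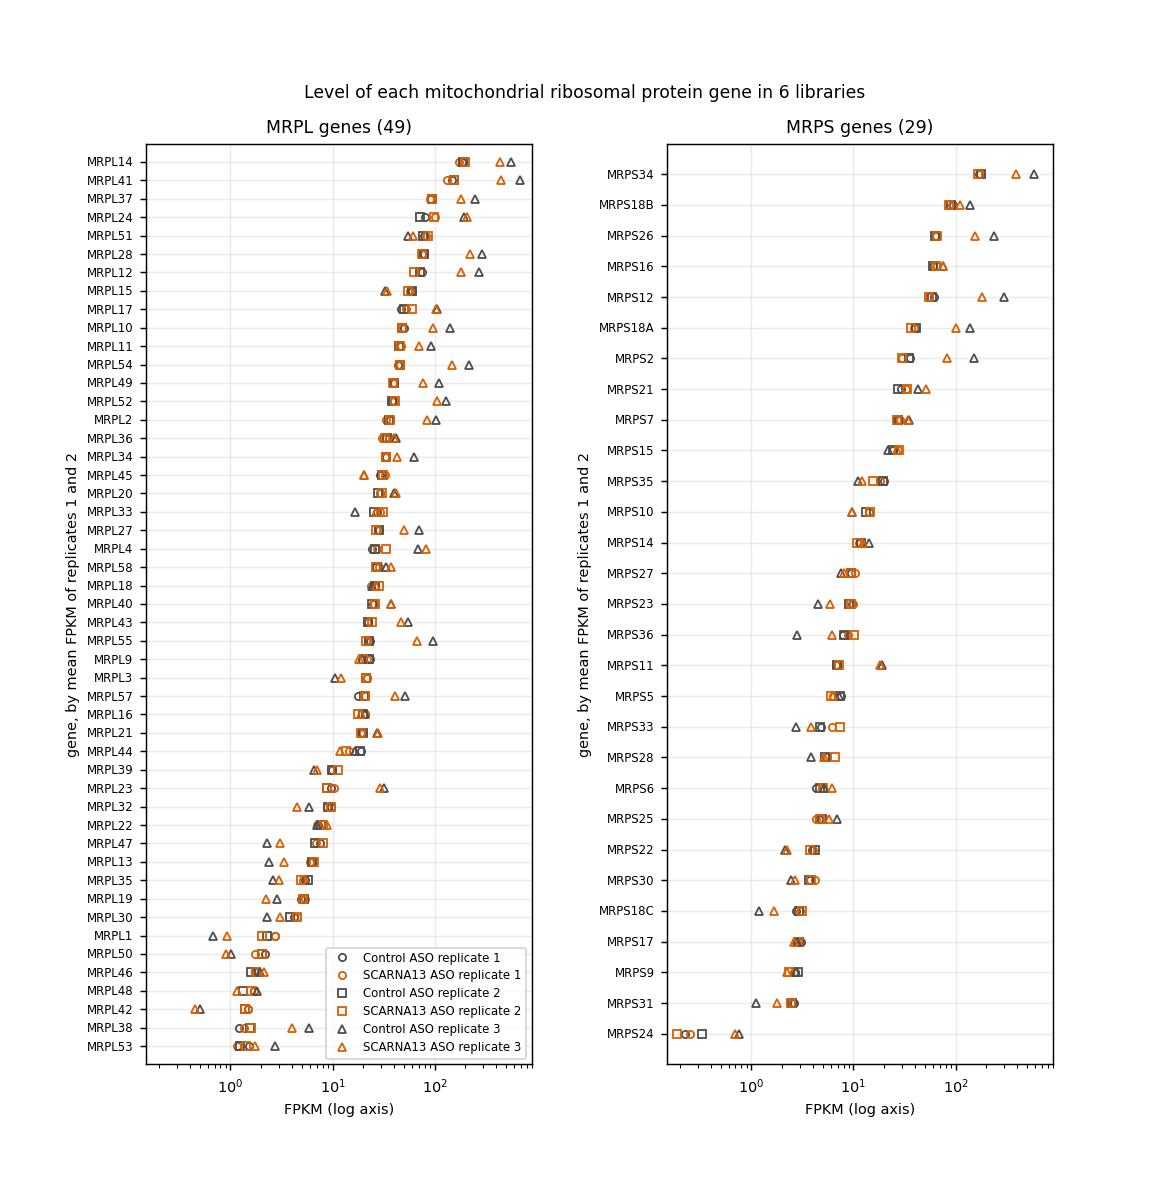
Level of each of the 78 genes in the 6 libraries, in FPKM on a log axis, with MRPL genes on the left and MRPS genes on the right, ordered by the mean of replicates 1 and 2. Circles and squares (replicates 1 and 2) lie close together in both groups, and triangles (replicate 3) stand to the right of them for many abundant genes and to the left for many low ones.

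MRPL14, whose protein lies at the face between the subunits, was the most abundant in replicates 1 and 2. It measured 187, 189 and 556 FPKM in controls and 172, 200 and 435 FPKM with SCARNA13 ASO. MRPL41, a mitochondrion-specific protein gene, gave 146, 154 and 678 FPKM against 133, 154 and 444 FPKM, so that replicate 3 placed it above MRPL14 in both groups. MRPL37 followed with 92.6, 94.6 and 251 FPKM in controls, MRPL24 with 81.0, 71.6 and 192 FPKM, MRPL51 with 79.2, 76.1 and 54.5 FPKM, and MRPL28 with 77.9, 77.9 and 289 FPKM. In the small subunit, MRPS34 led with 169, 176 and 584 FPKM in controls and 175, 167 and 392 FPKM with SCARNA13 ASO. MRPS18B stood at 94.9, 91.3 and 140 FPKM in controls, MRPS26 at 64.9, 63.3 and 239 FPKM, MRPS16 at 60.3, 59.6 and 75.5 FPKM and MRPS12 at 61.5, 58.9 and 299 FPKM. The order among MRPL37, MRPL24 and MRPL28, and among MRPS26, MRPS16 and MRPS12, changed between libraries, also within replicates 1 and 2. In replicate 3 of both groups, MRPL28 and MRPS12 came first among these.

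At the low end, MRPS24 was the only member that missed the mean of 1 FPKM required for testing. It had 0.226, 0.331 and 0.760 FPKM in controls and 0.254, 0.188 and 0.689 FPKM with SCARNA13 ASO, from 14 to 28 reads a library. The readthrough gene URGCP-MRPS24 covers part of its exons and is listed at 0 in every library. MRPL42 measured 1.5, 1.38 and 0.508 FPKM in controls and 1.5, 1.4 and 0.451 FPKM with SCARNA13 ASO. Its listed length of 16393 bases is long for a ribosomal protein gene, and its level per length is low accordingly. MRPL48, of the central protuberance of the large subunit, measured 1.72, 1.34 and 1.81 FPKM against 1.7, 1.6 and 1.17 FPKM. Of the 78 members, 41 share exonic bases with another gene and 10 share more than 25% of them. MRPL12 shares most, at 68.2%, and MRPS18A shares 47.0% with other genes, chiefly RSPH9 on the opposite strand. Reads in such stretches cannot be assigned with certainty, and how the counting treated them is not given in the sources used here.

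Summed over members, the ratio of the subunits stayed within a narrow range in all libraries, whereas the ratio of their medians did not. MRPL genes summed to 1631, 1623 and 4013 FPKM in controls and 1617, 1681 and 3179 FPKM with SCARNA13 ASO. MRPS genes summed to 734, 728 and 1837 FPKM against 735, 720 and 1324 FPKM. The ratio of the sums, large over small, was 2.22, 2.23 and 2.18 in controls (mean 2.21 ± 0.0243, SD, n = 3) and 2.20, 2.34 and 2.40 with SCARNA13 ASO (2.31 ± 0.102). These groups overlap, and the difference of 0.101 became 0.0430 when both libraries of replicate 3 were left out and 0.157 without SCARNA13 ASO replicate 1. The ratio of the median MRPL to the median MRPS level was 2.56, 2.74 and 4.29 in controls and 2.42, 2.70 and 4.22 with SCARNA13 ASO, higher in replicate 3 of both groups. With MRPS18A and MRPS30 counted in the large subunit and MRPS36 left out, the ratio was 2.46 ± 0.00808 in controls and 2.57 ± 0.133 with SCARNA13 ASO. Members took 0.611% ± 0.0622 of all gene-assigned reads in controls and 0.610% ± 0.0349 with SCARNA13 ASO (SD, n = 3), a difference far below the spread between libraries.

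Levels of these genes differed more between replicate 3 and the other replicates than between ASOs. In replicate 3, 44 members were higher and 34 lower than in replicates 1 and 2, on log2(FPKM + 0.5). The shift followed the GC content of the longest transcript (r = 0.82, rho = 0.84 over 78 genes; r = 0.81 over the 10104 genes tested with a GC value). Of 33 members with GC content over 50%, 31 were higher in replicate 3, the exceptions being MRPL9 and MRPL16, and of 30 members under 45%, 24 were lower. MRPS12 shifted most upward, by 2.01, followed by MRPL54 at 1.97. At the other end stood MRPL47, at -1.31, and MRPL1, at -1.18. The shift was positive for 29 of 49 MRPL and 15 of 29 MRPS genes, with medians of 0.48 and 0.0098, and the median GC content of these groups was 50.7% and 46.8%.

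The contrast in composition can be read from the last 90 coding bases of the members with the highest and lowest shift, printed 5′ to 3′ on the coding strand with G and C in capitals. That of MRPS12, at chr19:38932608-38932697 (GRCh38, plus strand), holds 64.4% G or C, and that of MRPL47, at chr3:179588875-179588964 (minus strand), holds 35.6%.
MRPS12: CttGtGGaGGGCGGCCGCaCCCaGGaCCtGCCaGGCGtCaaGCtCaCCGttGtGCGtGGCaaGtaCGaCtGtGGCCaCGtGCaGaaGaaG
MRPL47: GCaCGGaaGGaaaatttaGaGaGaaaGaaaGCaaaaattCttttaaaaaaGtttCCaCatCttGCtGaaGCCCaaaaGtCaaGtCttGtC
The whole coding sequences hold 65.2% and 42.5%. MRPS12 measured 61.5 and 58.9 FPKM in Control ASO replicates 1 and 2 and 299 FPKM in replicate 3, while MRPL47 measured 7.56 and 6.80 FPKM and then 2.29 FPKM. With SCARNA13 ASO the same genes read 54.5, 55.0 and 182 FPKM, and 6.86, 7.99 and 3.05 FPKM. The shift of replicate 3 was thus smaller with SCARNA13 ASO for both genes. Within the pair of replicate 3, the SCARNA13 ASO minus Control ASO difference was lower at higher GC content across members (r = -0.59), whereas pairs 1 and 2 gave r = -0.13 and r = -0.10.

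**Figure D2:**
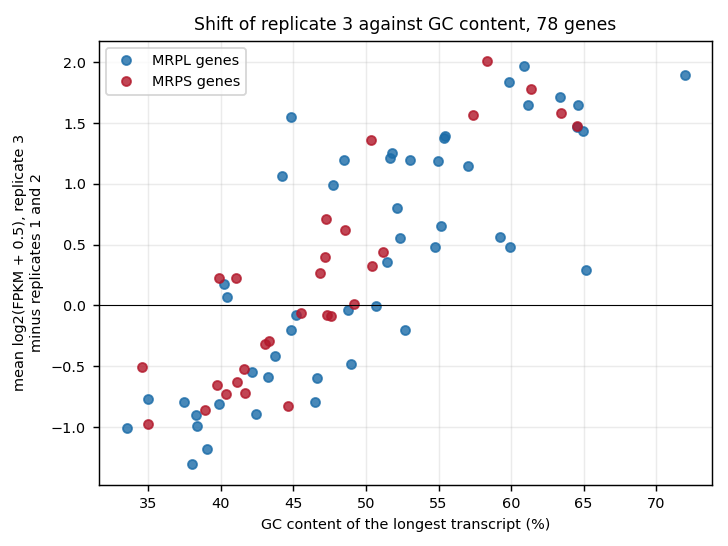
Shift of replicate 3 against replicates 1 and 2 (mean log2(FPKM + 0.5), vertical axis) by the GC content of the longest transcript in percent (horizontal axis), with 1 point for each of the 78 genes. Of 30 genes under 45% GC, 24 lie below 0, and of 33 over 50%, 31 lie above it, MRPL and MRPS genes alike.

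With all 6 libraries on the deposited scale, no member passed the test between the ASO groups. The fit by limma with group as the only term called 0 of 77 members tested at an adjusted p under 0.05, and 0 of 10120 genes (0% called). Unadjusted p fell under 0.05 for 0 of 77 members and for 1.71% of all genes tested, and limma-voom on recovered reads called 0 genes too. The standard error of a member's log2 fold change had a median of 0.33 in this fit, because replicate 3 widened the spread within groups. Members higher with SCARNA13 ASO numbered 33 of 77 (42.9%), against 45.5% of all genes. Median log2 fold changes were -0.050 for the 49 MRPL genes and 0.0070 for the 28 MRPS genes, beside -0.025 over all genes tested, and the extremes were MRPS2 at -0.47 and MRPS36 at 0.49. The medians of both subunits moved with Control ASO replicate 3: without that library they were 0.14 and 0.039. Scaled to total reads in place of the deposited scale, the median of all genes became 0.057 and those of the subunits 0.030 and 0.10. With the replicate number as a block and no GC correction, 0 of 77 members and 0 of 10120 genes passed, while unadjusted p was under 0.05 for 11 of 77 members (14.3%) and 25.7% of all genes.

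A fit with GC-corrected values and the replicate number as a block narrowed the median standard error to 0.077. In it 1 member rose and 1 fell, MRPL24 and MRPL44, or 2 of 77 (2.60%), against 5.21% of the 10104 genes in that fit, 3.06% higher and 2.15% lower. Unadjusted p was under 0.05 for 16 of 77 members (20.8%), against 31.3% of all genes. Members above 0 numbered 36 of 77 (46.8%, against 50.1%). Median log2 fold changes were -0.038 for MRPL, 0.016 for MRPS and 0.00026 for all genes. Every tested member lay within 1.5-fold of no change, as did 96.4% of all genes, and 69 of 77 lay within 1.2-fold (89.6%, against 75.7%). The calls depend on replicates 1 and 2: without replicate 1 of both groups, or without replicate 2, the count was 0 of 77 members, with 19 and 7 genes called in all.

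**Figure D3:**
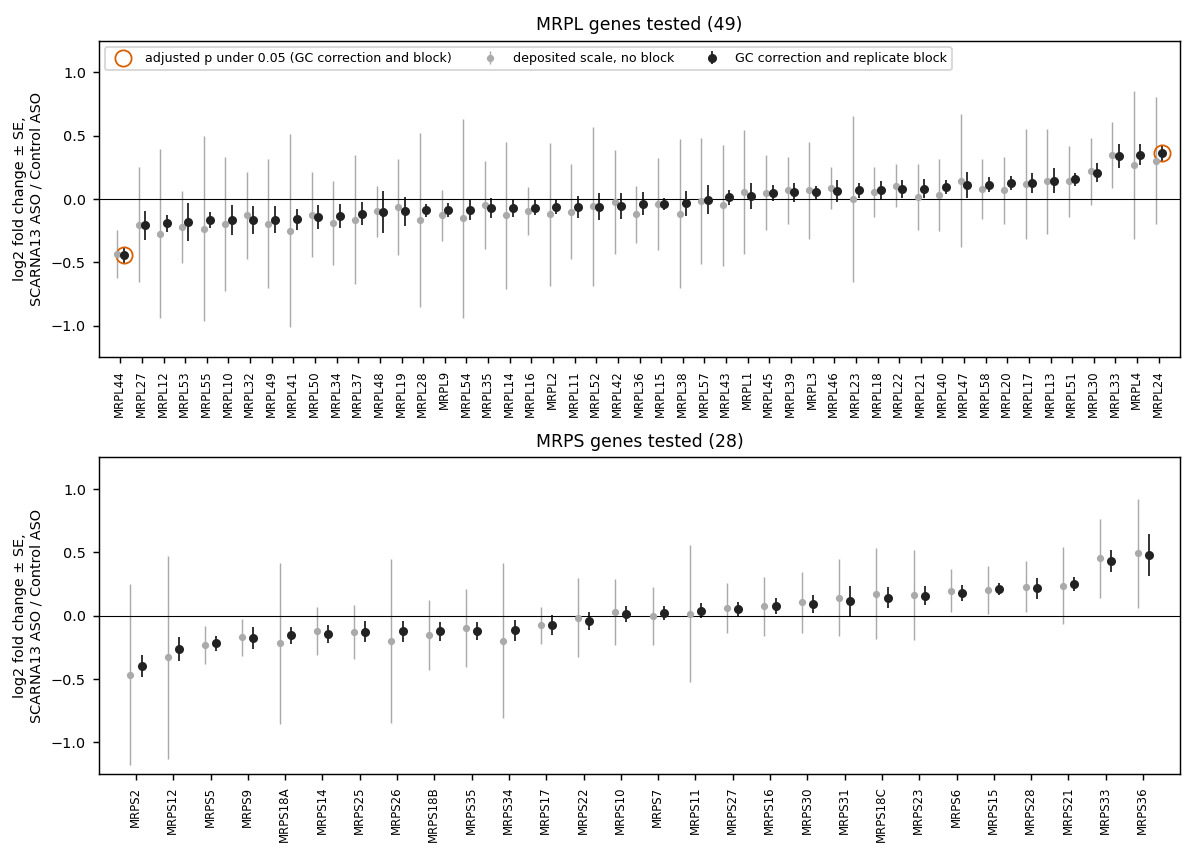
Log2 fold change, SCARNA13 ASO over Control ASO, with its standard error for the 49 MRPL and 28 MRPS genes tested. Grey points are the fit on the deposited scale with no block, black points the fit with GC correction and replicate block; error bars shrink about as the median standard error does, from 0.33 to 0.077, and only MRPL24 and MRPL44 (circled) passed in the latter.

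Libraries were also compared without a model. In 4 of 77 members (5.19%) the libraries of the groups did not overlap, against 8.44% of all genes: MRPS15 was higher (1 of 77, against 4%), and MRPL44, MRPS5 and MRPS9 were lower (3 of 77, against 4.44%). Pairs follow the replicate numbers, and the values could not tell which libraries of numbers 1 and 2 belong together. The sign was the same in 3 of 3 replicate pairs for 37 of 77 members (48.1%, against 53.6%). It was higher for 17 (22.1%, against 23.9%) and lower for 20 (26.0%, against 29.6%). In the limma fit with both libraries of replicate 3 left out, 5 of 77 members passed (6.49%), against 9.11% of all genes. Of these, MRPL24 and MRPS33 rose (2 of 77, against 4.52%), and MRPL44, MRPS2 and MRPS5 fell (3 of 77, against 4.59%). Unadjusted p was under 0.05 in that fit for 14 of 77 (18.2%, against 30.5%). In each of these counts the share of members was below that of all genes, and whether it differs from it was not tested.

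MRPL44 was the member that fell in both of these fits. It encodes a mitochondrion-specific protein with a ribonuclease III-like fold near the tunnel exit, and inherited defects in it are known to cause cardiomyopathy. Controls measured 18.9, 18.6 and 16.8 FPKM, and SCARNA13 ASO libraries 14.6, 13.5 and 11.8 FPKM. Every treated library was below every control, and the gene moved little between replicate numbers (shift of replicate 3, -0.20). The means were 18.1 FPKM ± 1.15 and 13.3 FPKM ± 1.40 (SD, n = 3), with an exact two-sided permutation p of 0.1. With GC correction and block the level fell by 26.3%, a log2 fold change of -0.44 ± 0.062 (SE; limma adjusted p = 0.038). On the deposited scale with no block the same gene gave -0.44 ± 0.19 (limma adjusted p = 1.0), and over all alternatives its log2 fold change ran from -0.50 to -0.34 and its adjusted p from 0.0266 to 1.0. Of its exonic bases, 12.9% are shared with another gene.

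MRPL24 moved the other way. The bacterial homolog of its protein starts assembly of the large subunit and lies at the exit of the tunnel. It read 81.0, 71.6 and 192 FPKM in controls and 102, 99.2 and 208 FPKM with SCARNA13 ASO. The treated library was the higher in each pair, but the groups overlap because replicate 3 was high in both. Its means were 115 FPKM ± 66.9 and 136 FPKM ± 61.9 (SD, n = 3; exact permutation p = 0.5). GC correction and block gave a rise of 28.4%, a log2 fold change of 0.36 ± 0.061 (limma adjusted p = 0.0459), and replicates 1 and 2 alone gave 0.40 ± 0.0685 (limma adjusted p = 0.0364). Without SCARNA13 ASO replicate 3 on the deposited scale the value was -0.045, and over all alternatives it ran from -0.045 to 0.75 with adjusted p from 0.0364 to 1.0.

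The sequence before the RefSeq start is shown for these members, the ones called in the corrected fit (GRCh38.p14, RefSeq promoters). It runs from 250 bases before that start to the first base in an exon of their protein-coding transcripts. Exons further upstream were not looked for. For MRPL24 it is chr1:156741132-156741338 on the minus strand, and for MRPL44 chr2:223957213-223957403 on the plus strand. Capitals would mark a motif for NRF1, ETS factors or YY1, spelled out further on, and neither stretch holds any of them.
MRPL24: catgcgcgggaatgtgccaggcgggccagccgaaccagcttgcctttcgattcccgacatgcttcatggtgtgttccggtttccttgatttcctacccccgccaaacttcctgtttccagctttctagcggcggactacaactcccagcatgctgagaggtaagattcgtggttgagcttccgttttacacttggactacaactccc
MRPL44: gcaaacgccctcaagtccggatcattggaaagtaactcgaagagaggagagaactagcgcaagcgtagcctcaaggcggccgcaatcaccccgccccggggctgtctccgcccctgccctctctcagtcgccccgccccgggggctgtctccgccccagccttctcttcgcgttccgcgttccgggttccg
The gene bodies span chr1:156737303-156741590 (MRPL24, minus strand) and chr2:223957404-223967714 (MRPL44, plus strand) in the deposited coordinates. The MRPL24 stretch thus lies inside the deposited gene, which begins further upstream than its RefSeq start.

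**Figure D4:**
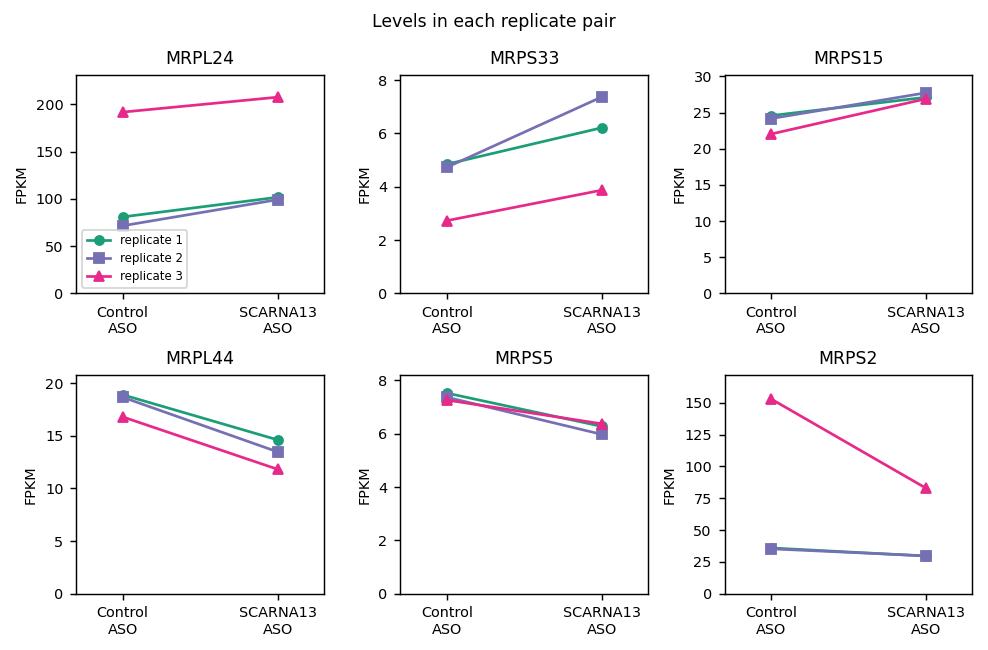
Level in FPKM of 6 members in each replicate pair, with a line from the Control ASO to the SCARNA13 ASO library of the same number. All 3 lines climb for MRPL24, MRPS33 and MRPS15 and descend for MRPL44, MRPS5 and MRPS2, and replicate 3 lies apart for MRPL24, MRPS33 and MRPS2.

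MRPS33, MRPS2 and MRPS5 passed when both libraries of replicate 3 were left out, but not in the fit with GC correction and block. MRPS33, a mitochondrion-specific protein of the small subunit head, had 4.85, 4.73 and 2.73 FPKM in controls and 6.22, 7.37 and 3.87 FPKM with SCARNA13 ASO. Replicates 1 and 2 gave 0.46 ± 0.0885 on the log2 scale (limma adjusted p = 0.044). GC correction with the block gave 0.43 ± 0.0854 (limma adjusted p = 0.0545), or 0.44 when scaled to total reads (limma adjusted p = 0.0486). MRPS2, which helps to hold the messenger RNA exit side of the subunit, measured 36.0, 35.3 and 153 FPKM in controls and 29.6, 29.8 and 83.0 FPKM with SCARNA13 ASO. The first pairs differed by -0.28 and -0.24 and pair 3 by -0.88 on the log2 scale, and the value without replicate 3 was -0.26 ± 0.042 (limma adjusted p = 0.033). Without Control ASO replicate 3 on the deposited scale it was 0.23. MRPS5, at the messenger RNA entrance, held 7.53, 7.37 and 7.27 FPKM in controls and 6.28, 5.98 and 6.37 FPKM with SCARNA13 ASO. Its groups did not overlap (means 7.39 FPKM ± 0.131 and 6.21 FPKM ± 0.207, SD, n = 3; exact permutation p = 0.1). Replicates 1 and 2 gave -0.26 ± 0.054 (limma adjusted p = 0.0485), and the corrected fit -0.22 ± 0.059 (limma adjusted p = 0.0861).

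MRPS15 and MRPS9 were the other members without overlap, and neither passed in any of the fits run. MRPS15, an early binder of the small ribosomal RNA, had 24.6, 24.2 and 22.0 FPKM in controls and 27.1, 27.7 and 26.9 FPKM with SCARNA13 ASO (corrected log2 fold change 0.21 ± 0.050, limma adjusted p = 0.0707). MRPS9, whose bacterial homolog reaches toward the transfer RNA, had 2.70, 2.84 and 2.71 FPKM against 2.60, 2.33 and 2.25 FPKM (-0.18 ± 0.087, limma adjusted p = 0.235). Exact permutation gave p = 0.1 for each. Their shifts in replicate 3 were small, at -0.085 and -0.065.

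Other members at the upper end of the deposited scale passed in none of the fits run. MRPS36 had the highest value, 0.49 ± 0.43 (limma adjusted p = 1.0), from 7.95, 8.17 and 2.80 FPKM in controls and 8.88, 10.2 and 6.22 FPKM with SCARNA13 ASO. Pairs 1 and 2 differed by 0.15 and 0.30 and pair 3 by 1.03, so its size rests on replicate 3. MRPL33, a small bacterial-type protein, had 27.2, 25.5 and 16.7 FPKM against 29.5, 31.1 and 26.4 FPKM (corrected value 0.34 ± 0.095, limma adjusted p = 0.0908). MRPL4, of the tunnel wall, had 24.4, 25.9 and 68.3 FPKM against 27.2, 33.6 and 83.0 FPKM (0.35 ± 0.085, limma adjusted p = 0.0714). MRPS21 had 29, 27.1 and 43.2 FPKM against 32.5, 33.7 and 51.2 FPKM (0.25 ± 0.055, limma adjusted p = 0.0641). All of these were higher with SCARNA13 ASO in 3 of 3 pairs.

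Other members at the lower end of the deposited scale were MRPL12, MRPS12 and MRPL41, highest of all libraries in Control ASO replicate 3. MRPL12, of the stalk that recruits translation factors, measured 75.9, 71.8 and 270 FPKM in controls and 72.7, 62.5 and 183 FPKM with SCARNA13 ASO. On the deposited scale its log2 fold change was -0.27 ± 0.67, and after correction -0.19 ± 0.066 (limma adjusted p = 0.13). MRPS12, at the decoding site, went from -0.33 ± 0.80 to -0.26 ± 0.092 (limma adjusted p = 0.131), and MRPL41 from -0.25 ± 0.76 to -0.16 ± 0.083 (limma adjusted p = 0.251). Differences in pair 3 were -0.56, -0.71 and -0.61 for MRPL12, MRPS12 and MRPL41, against -0.20 to -0.0062 in pairs 1 and 2. Apart from MRPL24, MRPL41 and MRPS12, the most abundant members had these values in replicates 1 and 2 alone: MRPL14 at -0.017, MRPL37 at -0.015, MRPL28 at -0.054, MRPS34 at -0.010, MRPS26 at 0.0061, MRPS18B at -0.055 and MRPS16 at 0.11. The low MRPL42 and MRPL48 had corrected values of -0.056 ± 0.10 and -0.10 ± 0.16.

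Members were also grouped by the role of the protein, and whether a group moved jointly was not tested. The groups were chosen with earlier results of these data known, and their medians depend on which genes were placed in them. Over all genes, 3.06% rose, 2.15% fell and 50.1% were above 0 after correction. Without replicate 3, 4.52% rose, 4.59% fell and 4847 of 10120 genes were above 0. The decoding and messenger RNA path group (MRPS2, MRPS5, MRPS7, MRPS12 and the untested MRPS24) had the lowest median of these groups. It was -0.24 after correction and -0.20 in replicates 1 and 2. MRPS2, MRPS5 and MRPS12 are among the 6 members already named as lowest on the deposited scale. In this group 0 of 4 tested members passed after correction and 3 of 4 were below 0, and 2 fell without replicate 3 (MRPS2 and MRPS5). MRPS7 stood at 0.021 with 27.2, 27.4 and 34.9 FPKM in controls and 28.7, 26.5 and 34.0 FPKM with SCARNA13 ASO. The 7 genes around the polypeptide exit had a median of 0.079, with MRPL24 up and MRPL44 down and 5 not passed. MRPL45, which tethers the ribosome to the inner membrane, stood at 0.050 ± 0.0626 there. In the stalk group of MRPL10, MRPL11 and MRPL12, 0 of 3 passed and 3 of 3 were below 0 after correction, 2 of 3 without replicate 3, with a median of -0.16 after correction and -0.016 without replicate 3. Genes around the catalytic centre (0 of 6 passed, median -0.065) and the central protuberance (0 of 5, median 0.062) lay nearer 0. Of the latter, 3 of 5 were above 0 after correction and 5 of 5 without replicate 3. The pair of MRPS-named genes whose proteins sit in the large subunit gave -0.15 for MRPS18A and 0.094 for MRPS30.

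Ancestry and base composition gave similarly small differences. After correction, medians were -0.038 for 30 MRPL genes with bacterial homologs and -0.056 for the 19 without. For MRPS genes they were 0.011 (17 tested) and 0.050 (11 tested), and without replicate 3 all these medians lay between -0.0065 and 0.042. Sorted by GC content, the 26 members lowest in GC had a median of 0.078 on the deposited scale, 0.058 after correction and 0.044 without replicate 3. The 26 highest in GC had -0.14, -0.085 and -0.016. The 3 median pair differences of the latter were -0.044, 0.011 and -0.43, so the contrast was mostly in replicate 3.

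Genes that act with the mitochondrial ribosome were counted from the same fits, in which 5.21% of all genes passed after correction and 9.11% without replicate 3. Of 5 ribosomal proteins whose symbols fall outside the naming rule (DAP3, CHCHD1, AURKAIP1, PTCD3 and GADD45GIP1), 0 passed after correction or without replicate 3. DAP3 had 12.2, 12.9 and 10.1 FPKM in controls and 13.8, 12 and 11.6 FPKM with SCARNA13 ASO, and AURKAIP1, more abundant, had 124, 131 and 495 FPKM against 126, 141 and 367 FPKM. Among 22 tested assembly factors, 1 rose and 1 fell after correction, where 3.06% of all genes rose and 2.15% fell. YBEY, an endoribonuclease, measured 8.02, 7.96 and 8.20 FPKM against 9.82, 11.5 and 12.8 FPKM (0.50 ± 0.0875, limma adjusted p = 0.0473). DHX30, an RNA helicase, measured 25.1, 24.7 and 86.1 FPKM against 20.8, 20.2 and 56.6 FPKM (-0.31 ± 0.0518, limma adjusted p = 0.045). Without replicate 3, DHX30 and METTL17 fell and 0 rose (2 of 22, with 4.59% of all genes falling).

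Translation factors of the organelle passed in 0 of 14 cases and mitochondrial transcription genes in 0 of 5, after correction or without replicate 3. Nuclear regulators, among them NRF1, GABPA, YY1 and MYC, passed in 0 of 6 cases in the same fits. Of all genes, 5.21% passed after correction and 9.11% without replicate 3. The protease gene LONP1 rose, as 1 of 11 chaperone and protease genes (3.06% of all genes rose), from 27.7, 27.2 and 71.3 FPKM to 34.8, 35.2 and 88.4 FPKM (0.41 ± 0.0684, limma adjusted p = 0.0457). Of the ribosomal RNAs that the members bind, MT-RNR1 stood at -0.18 ± 0.0822 and MT-RNR2 at 0.12 ± 0.0979, and neither passed. The messenger RNAs that this ribosome translates gave 0 of 13 passed after correction, with a median of -0.33. Of these, 12 of 13 were lower in 3 of 3 pairs (29.6% of all genes), and 8 of 13 were lower with no overlap of the groups (4.44%). All 13 come from mitochondrial DNA and may move jointly, so they are not 13 separate observations. Whether their shares differ from those of all genes was not tested. In replicates 1 and 2 alone, MT-ND1, MT-ND2 and MT-ND5, of respiratory complex I, fell by 0.43, 0.45 and 0.37 on the log2 scale (3 of 13, with 4.59% of all genes falling). Cytosolic ribosomal proteins, translated by and building the other ribosome of the cell, had a median of -0.077 over 77 genes tested. The median of the members after correction, -0.038, lay between 0.00026 for all genes and -0.077 for the cytosolic set. Without replicate 3 it was 0.0093, above all genes at -0.010 and the cytosolic set at -0.046.

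A feature of position that the naming rule did not use was found in a larger share of members than of tested genes. For 29 of 78 (37.2%), the 5′ end of a protein-coding gene on the opposite strand lay within 1000 bases of their own, against 18.9% of 8885 protein-coding genes tested. MRPL genes had such a neighbour in 21 of 49 cases and MRPS genes in 8 of 29. MRPL46 and MRPS11 are neighbours of each other, with start sites 34 bases apart. They read 1.75, 1.60 and 1.95 FPKM and 6.69, 6.89 and 19.1 FPKM in controls, so a shared start region went with unequal levels. Among the partners, NDUFS6, a complex I subunit gene next to MRPL36, rose (0.40 ± 0.071, limma adjusted p = 0.0477) and NCAPD2, a condensin gene next to MRPL51, fell (-0.37 ± 0.047, limma adjusted p = 0.0365). MRPL36 itself stood at -0.038 and MRPL51 at 0.16, neither passing, and 31.3% of the exonic bases of MRPL51 are shared, chiefly with NCAPD2. Reads on the shared bases cannot be told apart unless strand was used.

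Promoter windows of 250 bases before to 50 bases after the RefSeq start were matched for 70 of 78 members. The YY1 motif, whose letters are the capitals in the lines that follow, was found on either strand in 10 of 70 (14.3%), against 2.49% of the 7319 promoters of protein-coding genes tested and 0.916% of all 27305 in the table. It was present in 5 of 42 MRPL and 5 of 28 MRPS windows. The 5 MRPS sites are printed with 9 bases on either side, the motif in capitals, since in each of them the ATG inside the motif is the annotated start codon.
MRPS10: gggaccggcAAGATGGCGGCgcggacagc
MRPS18A: aggtttttgAAGATGGCGGCcctcaaggc
MRPS18B: gcgtacgtcAAGATGGCGGCgtctgtatt
MRPS24: gcttggcccAAGATGGCGGCctccgtgtg
MRPS30: tcgcgggcaAAGATGGCGGCggccaggtg
They lie at chr6:42217833-42217861 (minus), chr6:43687763-43687791 (minus), chr6:30617854-30617882 (plus), chr7:43869479-43869507 (minus) and chr5:44808951-44808979 (plus) on GRCh38.p14, with the motif starting 10 to 24 bases after the RefSeq start. Genes that hold it ranged from MRPS18B at 91.3 FPKM to MRPS24 at 0.25 FPKM in replicates 1 and 2. The level of MRPS24 is uncertain, since it shares exonic bases with URGCP-MRPS24. MRPL50, which also holds the motif and shares none, stood at 1.99 FPKM, so the motif went with no common level. Corrected fold changes of the 4 tested genes shown ran from -0.15 to 0.094.

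For motifs of other factors known for nuclear genes of mitochondria, the shares lay closer together. All were searched on both strands, and the share of promoters of protein-coding genes tested is given after each. ETS factors (GABPA; CCGGAAGT) had a match in 15.7% of member windows, against 9.78%, with 21.4% for MRPL and 7.14% for MRPS genes. NRF1 (GCGCA, then any base, then GCGC) had a match in 11.4%, against 13%, and the TATA box (TATAAA) in 4.29%, against 5.07%. No window of a member held both the NRF1 and the ETS motif (0 of 70, against 1.5%). Among the 5 members called in these fits, MRPS33 alone holds an NRF1 match at chr7:141015088-141015117 (minus strand, motif in capitals with 10 bases on either side).
MRPS33: tagccttactGCGCAGGCGCcaggtacacc
A match is a string of letters and not a measured site, and windows without a match say nothing about the factor. Median GC content of the windows was 60.3% for members and 66.0% for tested genes.

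**Figure D5:**
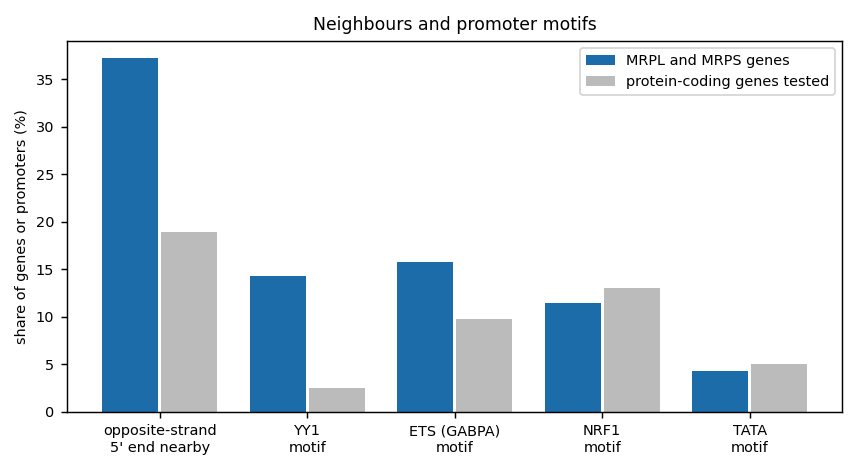
Share in percent of MRPL and MRPS genes (blue) and of protein-coding genes tested (grey) with an opposite-strand 5′ end within 1000 bases, or with each motif in the promoter window. The blue bar stands well above the grey one for opposite-strand neighbours (37.2% against 18.9%) and the YY1 motif (14.3% against 2.49%).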

How the data were processed

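RNA sequencing libraries were made from 1 µg of total RNA with an Illumina TruSeq kit, per the labels' protocols, for 3 Control ASO and 3 SCARNA13 ASO samples of HCCLM3 cells, grouped and numbered by the sample titles. The deposited files hold 1 value per gene and library with no unit named. The deposited unit was inferred to be FPKM from the values: multiplied by gene length, 100% of them fell on whole steps of a size fixed for each library (tolerance 0.01 reads), which recovers reads. That step size corresponds to library sizes of 13089653 and 15550655 for Control ASO and SCARNA13 ASO replicate 3, or 0.633 and 0.760 of their read totals, against 1.21 to 1.24 in the other 4 libraries, so the deposited FPKM scale of the authors is not per read total. TopHat2 2.0.9, Bowtie2 2.0.6 and hg19 are listed without a role per the submitters' processing notes, and a counting tool or strand setting is not given in the sources used here. Positions match GRCh38 (97.6% of 58039 identifiers found in GENCODE 29), and coordinates are given on it.

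The test was limma 3.58.1 (limma-trend, R 4.3.3) on log2(FPKM + 0.5) over the 10120 genes averaging 1 FPKM or more, two-sided, with Benjamini-Hochberg adjustment over all genes. Log2 fold changes are on that scale and come out too small for low genes. A second fit subtracted a loess trend (span 0.5) on GC content per library and took the replicate number as a block. Same-numbered libraries were taken as pairs. Their deviations from the group means correlated at 0.835, 0.785 and 0.915, and crossing numbers 1 and 2 gave 0.814 and 0.805. The correlations set replicate 3 apart in both groups but cannot tell which libraries of numbers 1 and 2 belong together. For these numbers, the pairs used in the block and the pair counts rest on the sample titles alone. The code was tested on simulated data. Named members were the 6 highest and 6 lowest log2 fold changes, members called in either fit, the 5 most abundant of each subunit, the 3 least abundant and those not tested; from other lists, members called or the smallest p. Members named as exceptions, extremes, partners or motif holders were chosen after their values were seen. The members and all lists were chosen with earlier results of these data known. Alternatives covered pseudocount, filter, scaling, limma-voom on recovered reads, trend, block, GC correction and left-out libraries. Promoter sequences are from RefSeq (GRCh38.p14), coding stretches from GENCODE 29.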

Additional observations from a re-analysis of the deposited data

How the results depend on the processing

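The 0 genes called by limma on the deposited scale became 526 with replicate block and GC correction, 922 with both libraries of replicate 3 left out, 629 with the block and those libraries left out, 243 with the block scaled to total reads and 732 with block, GC correction and total-read scaling. Block and GC correction without replicate 1, 2 or 3 called 19, 7 and 677. For members the same settings gave 2, 5, 3, 1 and 3, and 3 without replicate 3, and for the pathway lists together 4, 10, 7, 7 and 6, and 8. These lists held 5, 22, 14, 5, 6, 11, 2, 13 and 77 tested genes. In the first of these settings 5.21% of all genes passed, and with both libraries of replicate 3 left out 9.11%. The replicate block alone called 0 genes, 0 members and 0 list genes, and changed no other call. Every fit with another pseudocount, filter or single library left out called 0 members. The median log2 fold change of MRPL genes (-0.050) was 0.030 scaled to total reads, with or without the block, 0.021 with block and GC correction without replicate 3, and -0.14 to 0.14 with single libraries left out. For MRPS genes (0.0070) it was 0.10 scaled to total reads, with or without the block, 0.035 with GC correction added, and -0.010 to 0.039 with single libraries left out.

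The sign turned under at least 1 alternative for 61 of 77 members tested, among them 14 of those named by rule, chiefly when a replicate 3 library was left out. For these 14 the ranges over left-out libraries were -0.75 to 0.35 for MRPL12, -0.54 to 0.39 for MRPL14, -0.045 to 0.75 for MRPL24, -0.68 to 0.46 for MRPL28, -0.49 to 0.31 for MRPL37, -0.21 to 0.74 for MRPL4, -0.80 to 0.47 for MRPL41, -0.34 to 0.32 for MRPL42, -0.20 to 0.025 for MRPL48, -0.90 to 0.44 for MRPS12, -0.26 to 0.042 for MRPS18B, -0.96 to 0.23 for MRPS2, -0.62 to 0.43 for MRPS26 and -0.60 to 0.39 for MRPS34. With both libraries of replicate 3 left out, with or without the block, MRPL42 gave 0.0077, MRPL48 0.090 and MRPS26 0.0061. Block and GC correction without replicate 3 gave 0.0058 for MRPL37, 0.0084 for MRPL42 and 0.11 for MRPL48. Scaled to total reads, with or without the block, MRPL42 gave 0.027. Leaving out a library leaves fewer samples, and the cause of each turn was not tested. Where an arm fell to 2 libraries, the spread was pooled across genes by limma. For low members, such as MRPS24 with 14 to 28 reads, depth limits what can be seen, and MRPS24 also shares exonic bases with another gene.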

Other observations

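Loci named after members but not members themselves numbered 68, of which 63 are processed pseudogenes. Reads were assigned to 17 of them in at least 1 library. Together they held 936 reads over the 6 libraries, or 0.115% of the 811846 reads of the members, so near-identical copies took few of the assigned reads. Reads that fit several places may have been dropped or placed elsewhere, which the sources used here do not state.

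MRPL45P2, a transcribed unprocessed pseudogene, was the only such locus with a mean above 1 FPKM. It measured 2.12, 1.72 and 1.64 FPKM in controls and 2.79, 3.34 and 2.73 FPKM with SCARNA13 ASO, from 276 and 448 reads. Every SCARNA13 ASO library was above every control, which 4% of all genes tested also showed in that direction, and exact permutation gave p = 0.1. Its log2 fold change was 0.57 ± 0.17 on the deposited scale (limma adjusted p = 1.0), 0.54 ± 0.12 with GC correction and block (limma adjusted p = 0.0625) and 0.56 ± 0.12 without replicate 3 (limma adjusted p = 0.0532), so it did not pass in these fits. Its parent MRPL45 overlapped between groups, with 29.3, 30.8 and 20.5 FPKM against 32.6, 31.3 and 20.1 FPKM. Reads can be exchanged between the copies, which was not tested.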
